A study of Arabidopsis thaliana with 36 samples.

Results

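The plasma membrane aquaporins of Arabidopsis thaliana are described here through 10 of their genes in ageing rosette leaves. The genes were taken from the table of 33279 loci by their locus identifiers, and comprise PIP1-1 to PIP1-5 of the PIP1 subgroup and PIP2-1, PIP2-2, PIP2-6, PIP2-7 and PIP2-8 of the PIP2 subgroup, named as in the table (which spells PIP1-4 as PIP1.4). Levels are FPKM (fragments per kilobase of transcript and 1e+06 mapped fragments), added up over each locus. A gene was tested when it reached 1 FPKM in at least 3 libraries, and 18729 genes did so. All 10 aquaporin genes were among them.

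Leaves of 35 and of 21 days after sowing (DAS) of the wild-type accession Col-0 were compared, at 6 times of day each. Time is given as ZT, the hours since the lights came on, sampled from ZT1 to ZT21 in steps of 4 h. All plants were kept at 22 °C with 16 h of white light of 100 µmol m-2 s-1 and 8 h of dark, so that ZT17 and ZT21 were dark and the other times light. The RNA came from the 3rd and 4th rosette leaves per the sample labels, while the series text names the 3rd leaf, and polyadenylated RNA was sequenced in 3 libraries for each of the 12 groups. The series text calls these biological replicates, and how many plants entered a library is not given in the sources used here. The study asked how the daily rhythm of the leaf transcriptome changes with age.

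Aquaporins are membrane channels through which water crosses membranes along its gradient. In plants the plasma membrane intrinsic proteins (PIPs) form the plasma membrane family, and they assemble as tetramers. PIP2 proteins are efficient water channels on their own when expressed in frog oocytes, whereas PIP1 proteins usually reach the plasma membrane only together with a PIP2 partner. In leaves the PIPs of the veins and mesophyll take part in the hydraulic conductance of the rosette, and some also pass hydrogen peroxide or carbon dioxide.

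The genes lie on 4 of the chromosomes, and none of them overlapped another locus of the table. In TAIR10 coordinates, as the table gives them, PIP1-1 (AT3G61430) lies on chromosome 3 from 22733309 to 22735335, PIP1-2 (AT2G45960) on chromosome 2 from 18910295 to 18911982 and PIP1-3 (AT1G01620) on chromosome 1 from 225665 to 227302. PIP1-4 (AT4G00430) lies on chromosome 4 from 185450 to 187627 and PIP1-5 (AT4G23400) on chromosome 4 from 12220743 to 12222371. Of the PIP2 subgroup, PIP2-1 (AT3G53420) lies on chromosome 3 from 19803655 to 19805713, and PIP2-7 (AT4G35100) on chromosome 4 from 16708552 to 16710289. PIP2-2 (AT2G37170) on chromosome 2 spans 15613402 to 15614857, PIP2-6 (AT2G39010) spans 16291477 to 16294034 and PIP2-8 (AT2G16850) spans 7301581 to 7303437. PIP1-1 and PIP1-2, of the same subgroup, were identical at 87.6% of aligned coding bases, and PIP1-1 and PIP2-1, of different subgroups, at 69.5%.

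The 250 bases before the start of the most abundant transcript were read for each of the 10 genes, from the TAIR10.1 genome at the coordinates of the table, and compared in all 45 pairs. The median of the longest run of bases that a pair shared on the same strand was 9. The 2 pairs with the longest runs are shown, 5′ to 3′, with the shared run in capitals. PIP1-1 and PIP1-2 share AAACTCTGTCCA, which 4 of 33278 such windows of the genome hold (0.012%). PIP1-3 and PIP2-2 share TACAATTATTAACGTA, which 2 of the windows hold (0.00601%), these 2 genes. PIP1-1 and PIP1-2 both had their highest level at ZT1 at either age. So did PIP1-4, PIP2-1 and PIP2-7, whose longest runs shared with PIP1-1 had 7, 10 and 8 bases. PIP1-3 and PIP2-2 moved in opposite directions after dusk at 21 DAS, as given below. The runs were picked as the longest of the 45 pairs, so that few other windows hold them follows in part from that choice. The longest runs that pairs of other genes share were not taken. A link between the runs and the levels was not tested.
PIP1-1 (chr3:22733224-22733473, plus strand): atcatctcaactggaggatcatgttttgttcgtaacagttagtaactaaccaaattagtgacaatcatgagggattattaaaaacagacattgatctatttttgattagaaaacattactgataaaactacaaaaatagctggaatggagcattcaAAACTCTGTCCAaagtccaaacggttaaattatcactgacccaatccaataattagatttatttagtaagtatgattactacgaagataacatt
PIP1-2 (chr2:18910045-18910294, plus strand): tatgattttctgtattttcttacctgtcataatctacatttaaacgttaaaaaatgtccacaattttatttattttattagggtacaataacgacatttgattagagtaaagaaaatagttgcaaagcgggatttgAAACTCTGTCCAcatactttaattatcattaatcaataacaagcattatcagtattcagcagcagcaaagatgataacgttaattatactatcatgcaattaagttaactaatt
PIP1-3 (chr1:227303-227552, minus strand): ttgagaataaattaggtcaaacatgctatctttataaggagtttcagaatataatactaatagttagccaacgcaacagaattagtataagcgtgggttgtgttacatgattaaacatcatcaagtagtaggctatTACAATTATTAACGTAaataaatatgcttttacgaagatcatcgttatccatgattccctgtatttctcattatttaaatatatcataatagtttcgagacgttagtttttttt
PIP2-2 (chr2:15614858-15615107, minus strand): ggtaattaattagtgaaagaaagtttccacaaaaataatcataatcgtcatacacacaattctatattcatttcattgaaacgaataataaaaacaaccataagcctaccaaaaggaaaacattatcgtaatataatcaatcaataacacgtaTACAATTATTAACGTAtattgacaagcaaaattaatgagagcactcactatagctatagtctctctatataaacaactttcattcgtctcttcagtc

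Motifs that are known from light, clock and stress-regulated plant promoters were searched on both strands of the same windows. The G-box CACGTG, held by 6.7% of all windows, the HUD element CACATG (3367 windows of 33278), the DRE core CCGAC (13.2%), the evening element core AAATATCT (4.4%) and the telo box AAACCCTA (6.3%) were in none of the 10 windows. The ABRE core ACGTG, which 23.1% of all windows hold and which is part of the G-box, was in 1, that of PIP2-2, on the opposite strand with its first base 103 bases before the transcript start.

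Libraries of the 2 ages were alike in their sums of FPKM, at 829518 to 947688 at 35 DAS and 872504 to 952310 at 21 DAS. FPKM is already scaled to the library, so like sums do not show that the ages are on 1 scale. The table gives no read counts, so no counting interval is given. Markers of mesophyll, phloem, xylem, guard cells and epidermis were present, and the 3 root hair markers (COBL9, EXPA7 and RSL4) stayed below 1 FPKM in every library. Across all genes tested, 12084 were called higher and 4349 lower at 35 DAS, with a median log2 fold change of 0.39. After rescaling the libraries by median-of-ratios size factors these counts were 7974 and 7176, with a median of 0.04. In 4 libraries the locus AT2G01021 had 27856 to 74542 FPKM, against 0 in the other 32. These are replicate 2 of 35 DAS at ZT13, replicate 3 of 35 DAS at ZT17 and at ZT21, and replicate 1 of 21 DAS at ZT17.

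Together the 10 aquaporin genes were lower in the older leaves at every time of day. Their summed FPKM averaged 1927 ± 984 at 35 DAS and 3591 ± 1676 at 21 DAS (SD over 18 libraries each), which is 0.221% of all FPKM at 35 DAS and 0.398% at 21 DAS. At ZT1 the sum was 3791 ± 617 at 35 DAS against 6905 ± 354 at 21 DAS, and at ZT9 it was 1041 ± 46.7 at 35 DAS against 2762 ± 104 at 21 DAS (SD, n = 3 each). The older leaves thus held 54.9% of the younger leaves' sum at ZT1, 37.7% at ZT9 and 70.6% at ZT13, the time at which the ages were closest. At each of the 6 times the 3 older libraries lay below the 3 younger ones. The PIP1 genes made up 54.8% ± 2.86 of the sum at 35 DAS and 50.6% ± 3.65 at 21 DAS (SD, n = 18 each).

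**Figure D1:**
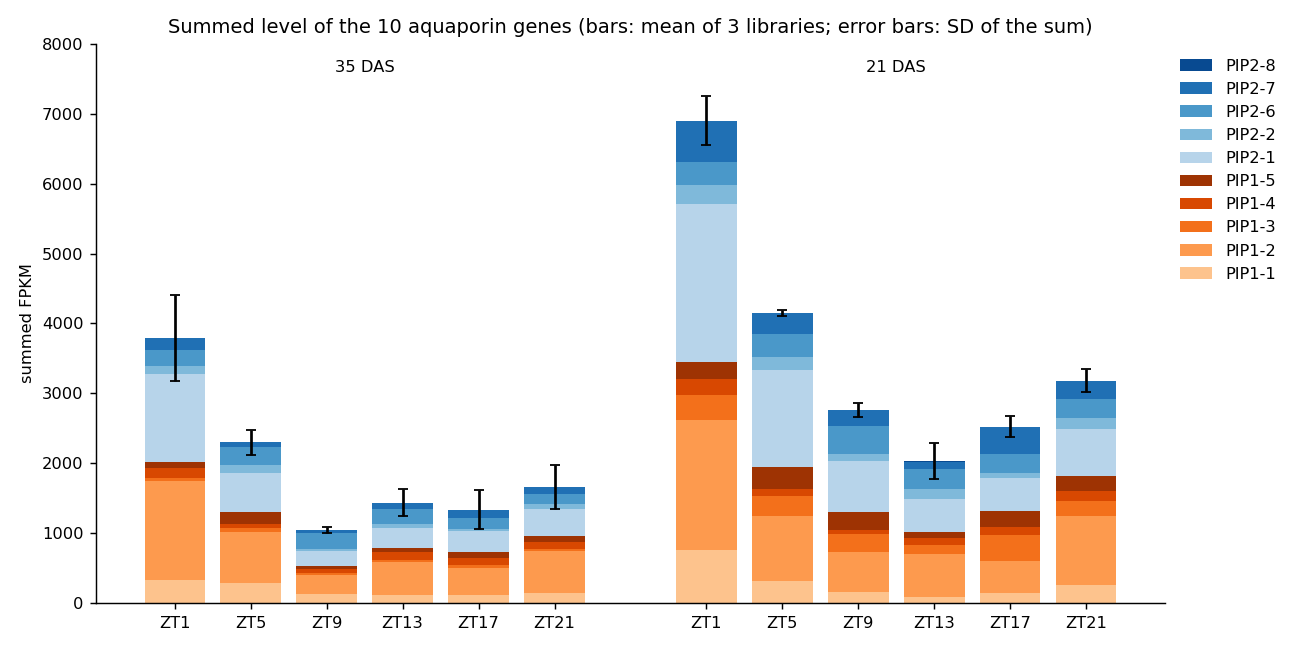
Summed FPKM (linear axis) of the 10 genes at each time of day, with 35 DAS on the left and 21 DAS on the right, stacked by gene as the mean of 3 libraries, PIP1 genes in orange and PIP2 genes in blue. Error bars are the SD of the sum. At ZT1 the bars reach 3791 at 35 DAS and 6905 at 21 DAS, and the lowest bars stand at ZT9 at 35 DAS (1041) and at ZT13 at 21 DAS (2026).

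Since FPKM is a level per transcript length, genes can be ordered by it. At 35 DAS PIP1-2 was first with a mean of 643.5 FPKM, followed by PIP2-1 with 499 FPKM, and PIP1-2 was the higher of the pair in 16 of 18 libraries. At 21 DAS PIP2-1 came first with a mean of 999.6 FPKM and PIP1-2 second with 906 FPKM, an order that held in 11 of 18 libraries. PIP1-2 and PIP2-1 are the PIPs best known in rosette hydraulics, with PIP2-6, which came next at either age with 207 FPKM at 35 DAS and 310 FPKM at 21 DAS. PIP2-8 came last at either age.

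Between these ends the order differed by age. At 35 DAS PIP2-6 was followed by PIP1-1 (188 FPKM), PIP2-7 (95.0 FPKM), PIP1-4 (93.3 FPKM), PIP1-5 (90.5 FPKM), PIP2-2 (70.7 FPKM) and PIP1-3 (38.5 FPKM). PIP2-7 and PIP1-4 were not separated, since PIP2-7 was the higher in 9 of 18 libraries. At 21 DAS PIP2-6 was followed by PIP2-7 (310 FPKM), PIP1-1 (287 FPKM), PIP1-3 (265 FPKM), PIP1-5 (224.9 FPKM), PIP2-2 (157 FPKM) and PIP1-4 (125 FPKM). PIP2-6 and PIP2-7 crossed there, as did PIP1-1 and PIP1-3, each pair with 9 of 18 libraries either way.

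All 10 genes were called lower at 35 DAS when the age effect was averaged over the 6 times, where 23.2% of all genes tested were called lower and 64.5% higher (limma on log2(FPKM + 1), Benjamini-Hochberg adjusted p under 0.05 over 18729 genes). Their median log2 fold change was −1.13, beside 0.39 over all genes tested, and after rescaling it was −1.55 beside 0.04. The fold changes below are on the log2(FPKM + 1) scale, 35 over 21 DAS, with their standard error. With whole leaves as the sample, fewer cells of a type and less RNA per cell cannot be told apart.

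**Figure D2:**
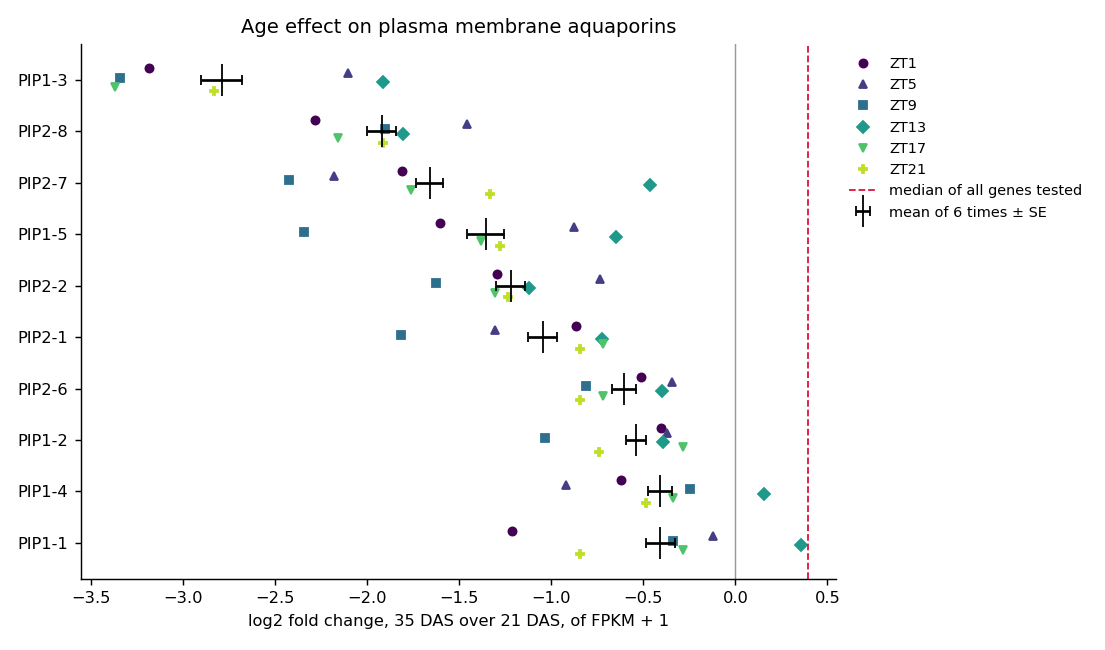
Log2 fold change of FPKM + 1, 35 DAS over 21 DAS, for each gene. Symbols are the 6 times, black bars the mean over the times with its SE, and the dashed line the median of all genes tested (0.39). Every mean lies left of 0, between −2.79 for PIP1-3 and −0.41 for PIP1-1 and PIP1-4, and of the single times ZT13 in PIP1-1 and PIP1-4 lie right of it, which turned in PIP1-4 after rescaling (−0.0866).

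Within the PIP1 subgroup the size of the fall differed widely. PIP1-3 had 20.4, 31.4 and 70.0 FPKM as its lowest, median and highest library at 35 DAS, against 117, 269 and 398.7 FPKM at 21 DAS. All 18 older libraries lay below all 18 younger ones, which held for 3.75% of all genes tested and, among the 10, for PIP1-3 and PIP2-8. The log2 fold change was −2.79 ± 0.11 (limma, adjusted p = 1.08e-18), a 6.92-fold fall that 0.678% of the genes tested exceeded.

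PIP1-5 had 34.3, 74.4 and 207 FPKM as its lowest, median and highest library at 35 DAS, against 76.9, 242 and 323 FPKM at 21 DAS. The ranges overlapped across times, and the log2 fold change was −1.36 ± 0.10 (limma, adjusted p = 5.96e-13). The 3 other PIP1 genes fell by less. PIP1-2 changed by −0.54 ± 0.05 (limma, adjusted p = 2.96e-10), PIP1-1 by −0.41 ± 0.08 (adjusted p = 3.01e-05) and PIP1-4, known to pass hydrogen peroxide, by −0.41 ± 0.06 (adjusted p = 9.92e-07). PIP1-1 was lowest at 73.6 FPKM and highest at 377 FPKM at 35 DAS, against 77.1 and 791 FPKM at 21 DAS, so its ages differed mainly at the upper end.

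Of the 5 PIP2 genes among the 10, PIP2-8 and PIP2-7 fell the most. PIP2-8 had 0.244, 0.794 and 1.35 FPKM as its lowest, median and highest library at 35 DAS, against 2.97, 5.69 and 10.11 FPKM at 21 DAS, with no overlap. Its log2 fold change was −1.92 ± 0.08 (limma, adjusted p = 1.44e-18). The added 1 FPKM holds this value down at so low a level, since the mean FPKM was 7.63-fold lower at 35 DAS and the log2 fold change ranged from −2.82 with a pseudocount of 0.1 to −0.89 with one of 5.

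PIP2-7, which is known to be carried to the plasma membrane with the help of the syntaxins SYP61 and SYP121, had 36.1, 86.1 and 208 FPKM as its lowest, median and highest library at 35 DAS, against 95.4, 278 and 620 FPKM at 21 DAS. Its log2 fold change was −1.66 ± 0.07 (limma, adjusted p = 4.64e-18). PIP2-1, a channel known for its regulation by phosphorylation, had 195, 357 and 1514 FPKM at 35 DAS, against 415, 714 and 2323 FPKM at 21 DAS, in the same order. Its log2 fold change was −1.05 ± 0.08 (adjusted p = 9.82e-13). The ranges of both genes overlapped between ages over the whole day and far less at single times, as the plot of levels by time shows.

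PIP2-2 averaged 70.7 ± 38.3 FPKM at 35 DAS and 157 ± 69.9 FPKM at 21 DAS (SD, n = 18 each), a log2 fold change of −1.22 ± 0.08 (limma, adjusted p = 1.72e-14). PIP2-6, a PIP of the leaf veins, averaged 207 ± 49.1 FPKM at 35 DAS and 310 ± 49.7 FPKM at 21 DAS, a log2 fold change of −0.60 ± 0.07 (adjusted p = 1.35e-09). The level of PIP2-6 varied little over the day, between 118 and 301 FPKM at 35 DAS and between 240.0 and 405 FPKM at 21 DAS.

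**Figure D3:**
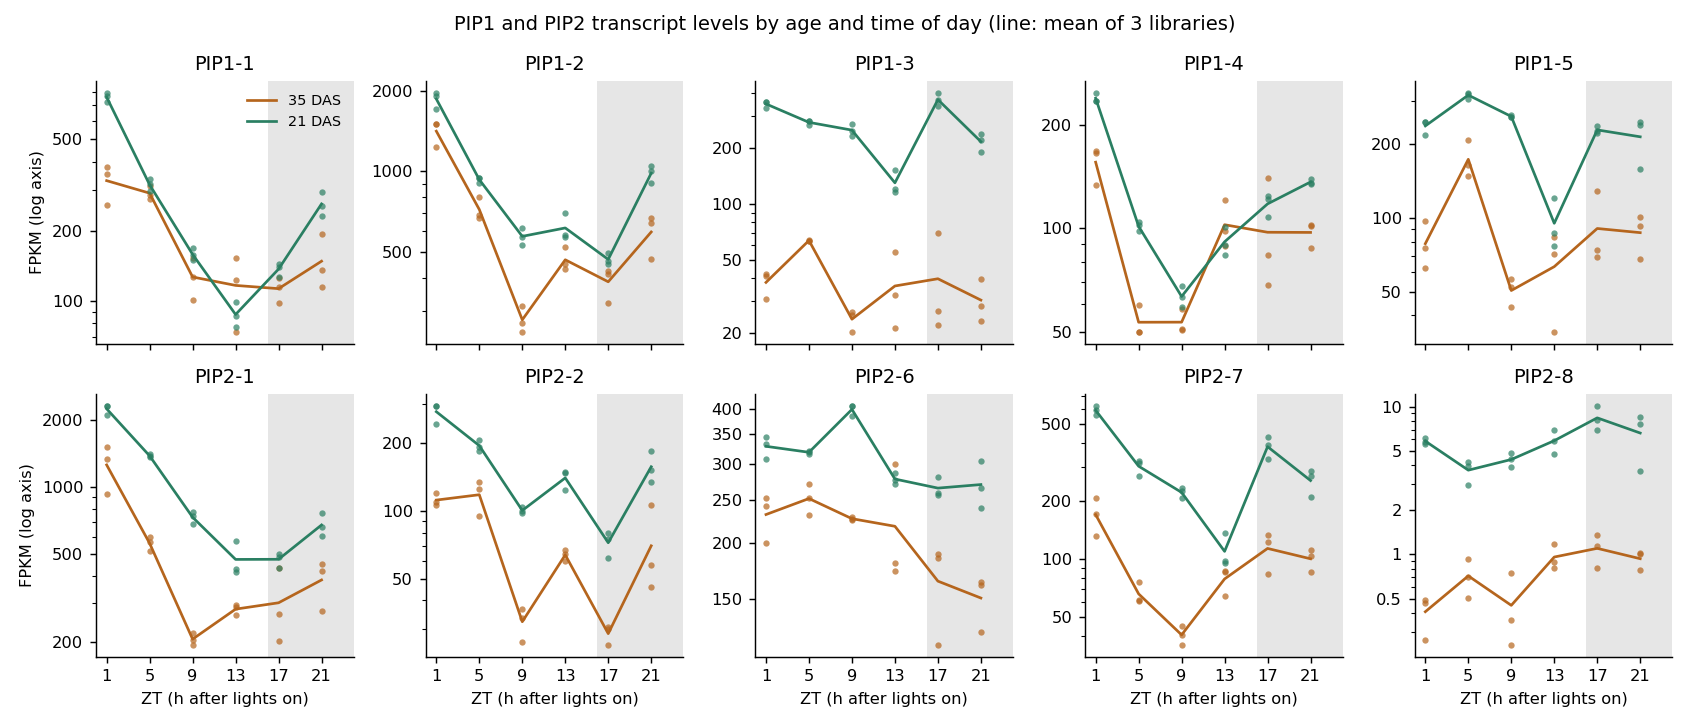
FPKM (log axis) against ZT in h for each of the 10 genes; points are libraries, lines join the means of 3 libraries, and the dark period is grey. Lines of 35 DAS run below those of 21 DAS except at ZT13 in PIP1-1 and PIP1-4, and the gap is widest in PIP1-3 and PIP2-8.

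The age effect was present at each time of day, with few exceptions. All 10 genes were called lower at ZT1, where 17.3% of all genes tested were. There were 8 such genes at ZT5 (15.2% of all), 8 at ZT9 (17.7%) and 8 at ZT13 (18%). ZT17 had 7 (18.5%) and ZT21 had 10 (18.4%). None of the 10 was called higher at any time, while of all genes tested 53.2% were at ZT1, 48.3% were at ZT5 and 52.2% at ZT9. The share of all genes called higher was 39.7% at ZT13, then 46.0% for ZT17 and 53.0% for ZT21. The calls that missed were those of PIP1-1 from ZT5 to ZT17, PIP2-6 at ZT5, PIP1-4 at ZT9, ZT13 and ZT17, and PIP1-2 at ZT17. After rescaling all 10 genes were called lower at ZT5, ZT9 and ZT17, and 8 at ZT13. The median log2 fold change of all genes tested was then 0.03 at each of these 4 times. Averaged over the 6 times, 38.3% of all genes tested were called lower after rescaling, and the shares at single times are not given here. The genes whose 3 older libraries all lay below the 3 younger ones numbered 10 at ZT1 (18.1% of all genes tested) and 9 for ZT5 (18.2%) and for ZT9 (19.2%). They numbered 6 for ZT13 (20%), 8 for ZT17 (19.3%) and 10 for ZT21 (19.1%). The counts of genes called lower moved when the libraries of 1 replicate number were left out. At ZT13 the count was 5 without the libraries numbered 1 and 3 without those numbered 3, and at ZT17 it was 5 without those numbered 3. It ran from 7 to 10 at ZT1, 6 to 8 at ZT5, 8 to 9 at ZT9 and 8 to 10 at ZT21. At ZT1 the calls of PIP1-2, PIP1-4 and PIP2-6 were lost without those numbered 1 (limma, adjusted p = 0.153, 0.0542 and 0.132).

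PIP1-1 showed how far the difference can depend on the hour. At ZT1 it had 261, 354.5 and 377 FPKM at 35 DAS, against 791, 766 and 720 FPKM at 21 DAS. The groups were far apart there, with a log2 fold change of −1.21 ± 0.19 (limma, adjusted p = 4.06e-06). At ZT13 it had 73.6, 124 and 153 FPKM at 35 DAS, against 86.4, 77.1 and 98.6 FPKM at 21 DAS. These overlapped, and the log2 fold change of 0.36 ± 0.19 did not pass the test (adjusted p = 0.118), but it did, at 0.65, without the libraries numbered 1 (adjusted p = 0.00443) and with library weights.

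PIP2-1 had 195, 221 and 205 FPKM at ZT9 at 35 DAS, against 770, 685 and 743.5 FPKM at 21 DAS. The older libraries lay far below every younger one, and the log2 fold change of −1.82 ± 0.20 was its largest of the day (limma, adjusted p = 8.52e-09). PIP2-7 likewise had its largest difference at ZT9, with 45.0, 36.1 and 40.8 FPKM at 35 DAS, against 226, 232 and 207 FPKM at 21 DAS. Its log2 fold change there was −2.42 ± 0.18 (adjusted p = 9.37e-12), beside −0.46 ± 0.18 at ZT13 (adjusted p = 0.0270), which no longer passed when the libraries of any 1 number were left out (adjusted p from 0.0558 to 0.146).

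PIP1-3 was far lower in the older leaves at all 6 times. At ZT1 it had 30.7, 41.8 and 40.7 FPKM at 35 DAS, against 356, 358 and 330.2 FPKM at 21 DAS. Its log2 fold change lay between −3.37 at ZT17 and −1.92 at ZT13, and every one of the 6 passed the test. PIP2-8 passed at all 6 times too, with values between −2.28 at ZT1 and −1.46 at ZT5. At ZT17, its highest time at either age, it had 1.14, 0.809 and 1.35 FPKM at 35 DAS, against 8.14, 6.96 and 10.11 FPKM at 21 DAS, and the groups were well apart.

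PIP1-5 and PIP2-2 had their largest differences at ZT9, as PIP2-1 and PIP2-7 did. PIP1-5 had 52.0, 43.2 and 56.5 FPKM at 35 DAS there, against 262, 257 and 257 FPKM at 21 DAS, a log2 fold change of −2.34 ± 0.25 (limma, adjusted p = 6.30e-09). PIP2-2, a gene studied for root water uptake, had 33.6, 36.7 and 26.2 FPKM at 35 DAS, against 97.6, 99.8 and 104 FPKM at 21 DAS, a log2 fold change of −1.63 ± 0.19 (adjusted p = 3.21e-08). No library of one age reached those of the other in either gene.

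PIP1-2 differed most at ZT9 too, with 271, 314 and 252 FPKM at 35 DAS, against 569, 532 and 615 FPKM at 21 DAS. Its log2 fold change was −1.04 ± 0.13 there (limma, adjusted p = 1.34e-07) and −0.29 ± 0.13 at ZT17 (adjusted p = 0.0595). PIP1-4 stood apart from these in differing most at ZT5, with 59.8, 49.9 and 50.02 FPKM at 35 DAS, against 98.1, 102 and 104 FPKM at 21 DAS, a log2 fold change of −0.92 ± 0.16 (adjusted p = 1.35e-05). At ZT9 its values of 50.7, 50.8 and 58.4 FPKM at 35 DAS came close to the 67.7, 58.9 and 63.3 FPKM at 21 DAS, and the difference did not pass the test (adjusted p = 0.162), though it did after rescaling (adjusted p = 0.000350).

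PIP2-6 differed most at ZT21 and ZT9. At ZT21 it had 127, 162 and 164 FPKM at 35 DAS, against 305, 240.0 and 266 FPKM at 21 DAS, a log2 fold change of −0.84 ± 0.16 (limma, adjusted p = 4.08e-05). At ZT5 its 252, 231 and 271 FPKM at 35 DAS lay below the 316, 322 and 319.5 FPKM at 21 DAS without overlap, but the log2 fold change of −0.35 ± 0.16 did not pass (adjusted p = 0.0603), and passed after rescaling, with library weights and without the 4 libraries that hold AT2G01021.

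For each gene a test of night against day in the age effect took the effect at ZT17 and ZT21 minus that at the 4 light times. None of the 10 genes was called by limma, against 15.8% of all genes tested, and 1, PIP2-1, had an unadjusted p under 0.05. The differences ran from −0.46 in PIP1-3 (35 DAS further below 21 DAS at night) to 0.40 in PIP2-1 (adjusted p = 0.110).

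Around dawn the levels of most of the genes rose at both ages. From ZT21 to ZT1, 7 of the 10 genes rose at 35 DAS and 7 at 21 DAS, where 10.6% of all genes tested rose at either age. None of the 10 fell, while 34.5% of all genes tested fell at 35 DAS and 37.7% at 21 DAS. PIP1-1, PIP1-2, PIP1-4, PIP2-1, PIP2-2 and PIP2-7 rose at both ages, PIP2-6 passed at 35 DAS and PIP1-3 at 21 DAS. The call of PIP1-3 was lost without the libraries of any 1 number, with no filter on low values and with its most abundant transcript alone, and that of PIP2-2 without those numbered 2 at either age and without those numbered 1 at 35 DAS. PIP2-1 rose the most at either age, by a log2 of 1.72 ± 0.20 at 35 DAS (limma, adjusted p = 7.66e-08) and 1.74 ± 0.20 at 21 DAS (adjusted p = 4.05e-08). PIP1-2 rose by 1.26 ± 0.13 at 35 DAS (adjusted p = 1.87e-08) and 0.92 ± 0.13 at 21 DAS (adjusted p = 2.01e-06).

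In FPKM, PIP2-1 had 931, 1338 and 1514 at ZT1 and 276, 450 and 421 at ZT21 at 35 DAS. At 21 DAS it had 2323, 2320 and 2126 at ZT1 and 765, 605 and 659.5 at ZT21. The libraries of the 2 times did not overlap at either age, and the older leaves were lower at both times. The difference between the ages in this change was called for none of the 10 genes by limma, against 8.14% of all genes tested, and none had an unadjusted p under 0.05, with values from −0.48 to 0.34.

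A 24-h cosine was fitted to each gene, and a gene was called rhythmic when the fit passed the test and its amplitude, the height of the peak above the mean, was at least 0.5 log2 units. At 35 DAS 6 of the 10 genes were rhythmic (17.3% of all genes tested), and at 21 DAS 7 (26.8%). PIP1-1, PIP1-2, PIP1-4, PIP2-1, PIP2-2 and PIP2-7 were rhythmic at both ages and PIP1-5 at 21 DAS, with amplitudes of 0.42 at 35 DAS and 0.52 at 21 DAS. The amplitude of PIP1-4 at 35 DAS was close to the limit, at 0.52, and fell under it with a pseudocount of 5 (0.50), rescaling (0.44) and without the libraries numbered 2 (0.46), while that of PIP1-5 at 21 DAS did so without those numbered 2 (0.48). Calls were also gained. With rescaling PIP1-5 was rhythmic at 35 DAS (0.51) and PIP1-3 at 21 DAS (0.55). PIP2-8 was so at 35 DAS with a pseudocount of 0.1 (0.54) and at 21 DAS without the libraries numbered 1 (0.52). By the looser rule that a gene differs among the 6 times by at least 1 log2 unit, 8 genes passed at 35 DAS (30.5%) and 8 at 21 DAS (40.2%), all but PIP2-6 and PIP2-8.

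PIP2-1 had the largest amplitude at 35 DAS, 1.01 ± 0.15 log2 units with a peak at ZT1.12 ± 0.77, and at 21 DAS it had 1.10 ± 0.11 with a peak at ZT2.73 ± 0.22 (SD over the 3 replicate numbers). PIP1-2 had amplitudes of 0.86 ± 0.13 at 35 DAS and 0.83 ± 0.09 at 21 DAS. PIP2-6 had amplitudes of 0.36 ± 0.15 at 35 DAS and 0.24 ± 0.04 at 21 DAS. These amplitudes were under the limit, so PIP2-6 was not called rhythmic at either age. Its fitted peak at ZT6.48 ± 1.86 at 35 DAS and ZT6.51 ± 1.04 at 21 DAS lay several hours after those of PIP1-2 and PIP2-1.

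**Figure D4:**
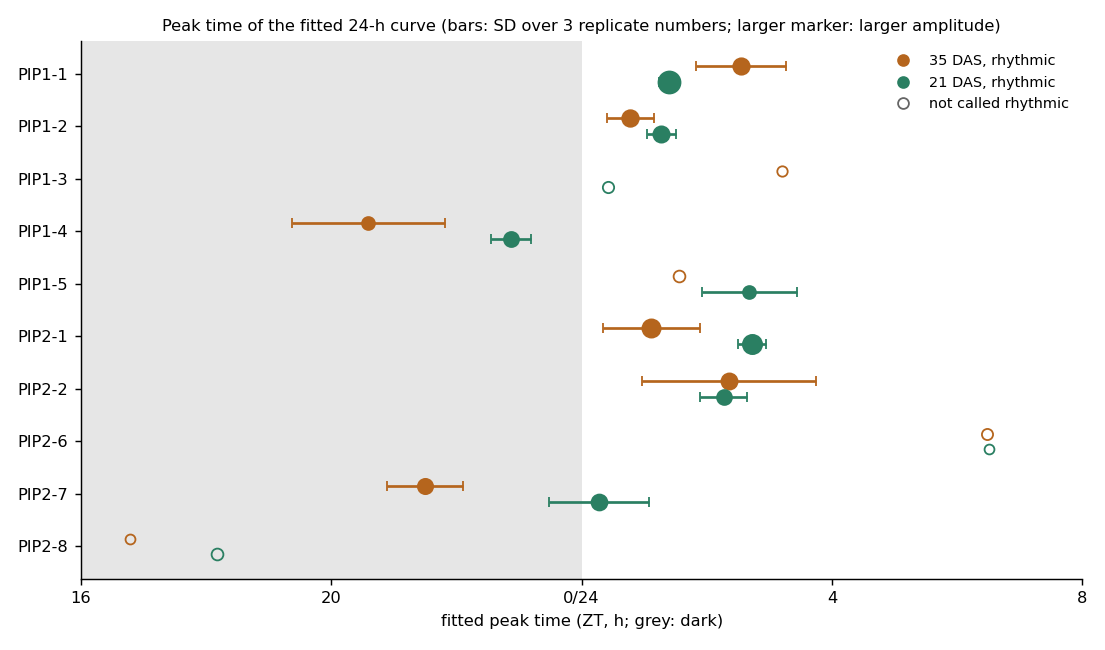
Fitted peak time in h (ZT, the axis runs from 16 through 0 to 8, dark period grey) of each gene at 35 DAS (brown) and 21 DAS (green), with the SD over the 3 replicate numbers for genes called rhythmic; open symbols were not called rhythmic and larger symbols have larger amplitudes. Fitted peaks of rhythmic genes lie between ZT20.6 (PIP1-4) and ZT2.55 (PIP1-1) at 35 DAS, and between ZT22.9 (PIP1-4) and ZT2.73 (PIP2-1) at 21 DAS.

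The rhythm itself differed between the ages in 4 genes, PIP1-1, PIP1-4, PIP2-1 and PIP2-7, against 27.1% of all genes tested (F test in limma on the cosine and sine terms). PIP1-1 had an amplitude of 0.85 ± 0.05 at 35 DAS and 1.36 ± 0.09 at 21 DAS (adjusted p = 0.000869), the largest loss of amplitude among the 10. PIP2-7 had amplitudes of 0.74 ± 0.13 at 35 DAS and 0.80 ± 0.06 at 21 DAS. Its fitted peak was at ZT21.5 ± 0.61 at 35 DAS and ZT0.277 ± 0.80 at 21 DAS (adjusted p = 0.000889).

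The fitted peak of PIP1-4 was at ZT20.6 ± 1.22 at 35 DAS and ZT22.9 ± 0.33 at 21 DAS (F test in limma, adjusted p = 0.00438). That of PIP2-1 was at the times given above (adjusted p = 0.0125). In PIP1-4, PIP2-1 and PIP2-7 the fitted peak thus came earlier at 35 DAS. In PIP1-1 it came at ZT2.55 ± 0.72 at 35 DAS and ZT1.40 ± 0.15 at 21 DAS. The highest measured mean was at ZT1 at both ages in all 4 genes, so the shifts are those of the fitted curve. PIP1-4 at 35 DAS, for example, averaged 156 FPKM at ZT1 and 97.3 FPKM at ZT21. Without the libraries numbered 2, 1 of the 4 calls remained, that of PIP1-4, which was lost without those numbered 1 (adjusted p = 0.0890). PIP2-1 was also lost without those numbered 3 (adjusted p = 0.0596) and with its more abundant transcript alone (adjusted p = 0.0594).

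The lights went off between ZT13 and ZT17, and over that step PIP1-3 and PIP2-7 changed differently at the 2 ages. Between ZT13 and ZT17, 1 gene rose at 35 DAS (12% of all genes tested) and 1 fell (7.71%), while at 21 DAS 4 rose (15.4%) and 2 fell (18.6%). PIP2-7 had 134, 123 and 83.6 FPKM at ZT17 and 64.4, 86.3 and 86.5 FPKM at ZT13 at 35 DAS. At 21 DAS it had 329, 428 and 390.0 FPKM at ZT17 and 97.5, 95.4 and 136 FPKM at ZT13. The times overlapped at 35 DAS and not at 21 DAS, with log2 changes of 0.50 ± 0.18 at 35 DAS (limma, adjusted p = 0.0439) and 1.80 ± 0.18 at 21 DAS (adjusted p = 5.18e-09). The call of PIP2-7 at 35 DAS was lost under 6 of the alternatives, among them rescaling (adjusted p = 0.112).

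PIP1-3 had 70.0, 22.2 and 26.3 FPKM at ZT17 and 32.2, 54.9 and 21.3 FPKM at ZT13 at 35 DAS. At 21 DAS it had 339, 398.7 and 364 FPKM at ZT17 and 117, 121 and 153 FPKM at ZT13. The older libraries were mixed at both times, and the log2 change was 0.04 ± 0.28 (limma, adjusted p = 0.942), while the younger ones rose by 1.49 ± 0.28 (adjusted p = 9.77e-05). Both SEs rest on 1 spread shared by the 2 ages. The pooled SD within groups of PIP1-3 was 0.487 at 35 DAS and 0.130 at 21 DAS. PIP1-5 had a change of 0.55 ± 0.25 at 35 DAS that did not pass (adjusted p = 0.123, and 0.0297 without the 4 libraries that hold AT2G01021), and rose by 1.28 ± 0.25 at 21 DAS (adjusted p = 0.000177).

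The difference between the ages in this change passed the test for PIP2-7, at −1.30 ± 0.25 (limma, adjusted p = 0.00104), and PIP1-3, at −1.45 ± 0.39 (adjusted p = 0.0154), where 4.39% of all genes tested were called lower and 11.2% in either direction. Neither passed without the libraries numbered 2, with values of −1.13 in PIP2-7 (adjusted p = 0.0991) and −0.69 in PIP1-3 (adjusted p = 0.415). PIP1-3 also failed it without those numbered 3 (−1.70, adjusted p = 0.0807) and without the 4 libraries that hold AT2G01021 (−0.97, adjusted p = 0.108). At 21 DAS PIP1-1 rose by 0.65 ± 0.19 as well (adjusted p = 0.0102, and 0.233 without the libraries numbered 2). PIP2-2 went the other way at both ages, with changes of −1.14 ± 0.19 at 35 DAS (adjusted p = 0.000116) and −0.95 ± 0.19 at 21 DAS (adjusted p = 0.000251), and PIP1-2 fell by 0.38 on the log2 scale at 21 DAS (adjusted p = 0.0251, which did not hold without the libraries of any 1 number).

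Libraries of the older leaves mostly lay further apart within their groups. The pooled SD of log2(FPKM + 1) within groups was larger at 35 DAS in 9 of the 10 genes, all but PIP2-8, which is given as a description with no test. The share of all genes tested with a larger spread at 35 DAS was not taken. Whether the larger spread is particular to these genes therefore cannot be told. In PIP1-3 it was 0.487 at 35 DAS and 0.130 at 21 DAS, and in PIP2-6 it was 0.267 at 35 DAS and 0.0871 at 21 DAS.

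Markers of several leaf cell types moved with age too, and their part in the aquaporin result was not tested. The summed FPKM of the 4 mesophyll markers lay between 3340 and 18100 at 35 DAS and between 23200 and 42100 at 21 DAS, and all 4 were called lower. That of the 6 xylem markers lay between 1.69 and 19.3 at 35 DAS and between 26.1 and 51.3 at 21 DAS, with all 6 lower. Of all genes tested 23.2% were called lower. At 35 DAS XCP1, LAC4, CESA7 and CESA8 averaged 0.343, 0.402, 0.187 and 0.212 FPKM. A gene at such a level can pass the filter of 1 FPKM through the 21 DAS libraries alone, so these calls carry little weight. Of the 6 epidermis markers 5 were tested and 4 were lower (122 to 349 FPKM at 35 DAS, 602 to 1120 FPKM at 21 DAS), with PDF1 below 1 FPKM in every library. CER1, 1 of these 4, averaged 0.141 FPKM at 35 DAS, and the same limit holds for it.

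The summed levels of vein markers outside the xylem were closer between the ages. The 6 phloem markers summed to 583 to 1440 FPKM at 35 DAS and 699 to 1440 FPKM at 21 DAS, with 4 lower and 2 higher, and after rescaling 4 lower and 1 higher. Single phloem markers differed more than the sum, with log2 fold changes from −0.90 in SULTR2-1 to 0.73 in SWEET12. The 3 bundle sheath markers summed to 34.1 to 81.3 FPKM at 35 DAS and 30.4 to 77.1 FPKM at 21 DAS, with 1 higher and 1 lower, and after rescaling all 3 lower. Of the 6 guard cell markers 5 were lower (33.2 to 92.2 FPKM at 35 DAS, 70.7 to 163 FPKM at 21 DAS).

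The gene most like each aquaporin was taken as the one of 13468 candidates (mean of at least 5 FPKM) with the highest Pearson correlation over the 12 group means, which share the same libraries and the difference between ages. For PIP1-3 it was BHLH62 (r = 0.994) and for PIP2-8 AT5G13140 (r = 0.982). For PIP1-5 it was the vacuolar aquaporin TIP1-2 (r = 0.965), and for PIP2-2 its close relative PIP2-3 (r = 0.924). PIP2-6 was most like PSAH1, a photosystem I subunit gene (r = 0.971), and PIP2-7 most like FATB, which encodes a fatty acyl thioesterase (r = 0.970). PIP1-1 was most like AT5G54300 (r = 0.976), PIP1-2 like LCY1 (r = 0.971), PIP1-4 like AT5G19850 (r = 0.950) and PIP2-1 like ABCB26 (r = 0.966).

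In the 5 genes other than PIP2-1 that the table gives with several transcripts, the most abundant one held at least 95.0% of the FPKM on average at either age. In PIP2-1 the transcript AT3G53420.1 held 6.30% ± 3.35 at 35 DAS and 16.0% ± 11.7 at 21 DAS (SD, n = 18 each). At 21 DAS its share was uneven between replicates, with 24.7%, 50.9% and 8.29% at ZT1, so the ages overlapped. The 2 transcripts hold the same coding exons in the RefSeq annotation and differ at their ends, and with the more abundant transcript alone the age effect of PIP2-1 at ZT1 did not pass the test (−0.40, adjusted p = 0.132).

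**Figure D5:**
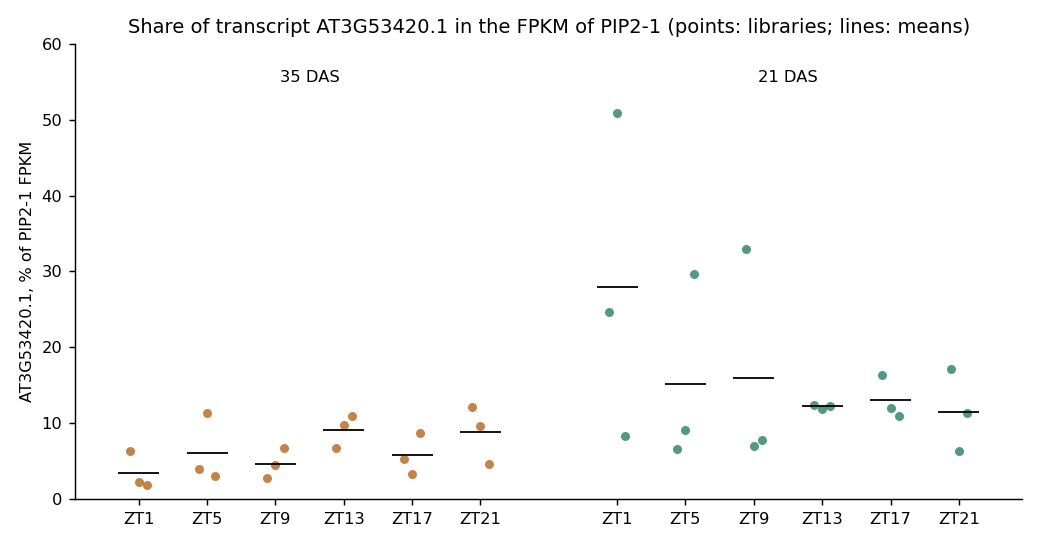
Share of the transcript AT3G53420.1 in the FPKM of PIP2-1, in percent (linear axis), for each library, with 35 DAS on the left and 21 DAS on the right; lines are means of 3 libraries. All libraries of 35 DAS lie at or below 12.1%, and 4 libraries of 21 DAS, all in the light period, lie between 24.7% and 50.9%.

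The level of PIP2-2 is uncertain, since the gene has a near copy. PIP2-3, its neighbour on chromosome 2, is identical to it at 94.8% of coding bases, and 22.0% of the 50-base stretches of PIP2-2 occur in PIP2-3 too. Among the 13 PIP genes no other pair shared a stretch of 50 bases. How reads that match both were counted is not given in the sources used here. The longest coding run that the 2 genes share within 1 exon has 127 bases, and is given because a read inside it matches both (chr2:15614491-15614617 on the minus strand in PIP2-2, chr2:15617953-15618079 on the plus strand in PIP2-3, TAIR10).
shared run: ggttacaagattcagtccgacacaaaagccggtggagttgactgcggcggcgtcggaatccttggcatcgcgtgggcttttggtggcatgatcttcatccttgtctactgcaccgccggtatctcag

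The 3 PIP genes outside the 10 fell as well. PIP2-3 averaged 5.10 FPKM at 35 DAS and 38.0 FPKM at 21 DAS, a log2 fold change of −2.10 ± 0.09 (limma, adjusted p = 8.92e-18). Since PIP2-3 shares stretches with PIP2-2, the falls of these 2 genes may not be independent. PIP2-4 averaged 0.0938 FPKM at 35 DAS and 1.14 FPKM at 21 DAS, and PIP2-5 1.62 FPKM at 35 DAS and 3.91 FPKM at 21 DAS. PIP2-4 reached at most 0.37 FPKM at 35 DAS, so it passed the filter of 1 FPKM through the 21 DAS libraries alone. A lower level at 35 DAS was thus nearly fixed in advance for PIP2-4, and nothing is drawn from its call. Of 25 aquaporins in all outside the 10, 13 were tested, of which 8, PIP2-4 among them, were called lower and 4 higher. Of all genes tested 23.2% were lower and 64.5% higher. After rescaling 9 of the 13 were lower and 3 higher, where 7176 of all 18729 genes tested were lower (38.3%) and 7974 higher. Those lower include all 4 vacuolar TIP genes tested, whose median log2 fold change was −2.14, led by TIP2-1 at −5.36 ± 0.11 and TIP1-1 at −2.39 ± 0.09. Those higher include NIP5-1, a boron channel, at 1.38 ± 0.12, and the endoplasmic reticulum aquaporins SIP2-1 at 1.03 ± 0.06 and SIP1-1 at 0.82 ± 0.06.

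Genes whose products are known to traffic, modify or bind PIPs were mostly called higher at 35 DAS, as 64.5% of all genes tested were. Of 12 such genes tested, 9 were called higher and 3 lower, with a median log2 fold change of 0.53 beside 0.39 over all genes, of which 23.2% were lower. After rescaling 5 of the 12 were higher and 3 lower, where 7974 of all 18729 genes tested were higher and 7176 lower (38.3%). Of those with a mean of at least 5 FPKM over all libraries, the highest were SYP61, a syntaxin that binds PIP2-7, at 0.93 ± 0.04 (limma, adjusted p = 1.01e-17), the vesicle SNARE VAMP721 at 0.72 ± 0.06 (adjusted p = 1.15e-12) and RMA1, a ubiquitin ligase, at 0.60 ± 0.09 (adjusted p = 3.64e-07). TSPO, a protein that takes part in PIP2-7 turnover, lay under that level but was higher still, at 1.87 ± 0.22 (adjusted p = 5.10e-09), and is named after its values were seen. The lowest was the carbonic anhydrase BCA4, a partner of PIP2-1, with 77.5 FPKM at 35 DAS and 231.6 FPKM at 21 DAS, a log2 fold change of −1.59 ± 0.08 (adjusted p = 4.54e-17). The receptor kinases SIRK1 and QSK1, which act on aquaporins, fell by 0.56 (adjusted p = 1.60e-08) and by 0.19 (adjusted p = 0.000514) on the log2 scale.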

How the data were processed

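Polyadenylated RNA of 36 leaf libraries was sequenced, 3 for each of 12 groups of age and time. The submitters' processing notes name STAR 2.3.0e, HTSeq, edgeR 3.12.1 and the TAIR10 build. The authors deposited 1 table of FPKM per transcript, and how these were made from the reads is not given in the sources used here. FPKM were summed per locus. Of the 32803 loci compared, 99.997% overlap the same locus in TAIR10.1, and 18613 have the same start or end there. The RefSeq genome of TAIR10.1 gave the bases shown.

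Genes that reached 1 FPKM in 3 or more libraries were tested with limma 3.58.1 on log2(FPKM + 1), with 12 group means, moderated variance with trend and Benjamini-Hochberg adjustment. For each gene all 12 groups share 1 estimate of the spread. Standard errors and p-values therefore do not follow a spread that differs between the ages. Age was tested as the mean over the times and at each time, and rhythm as F tests of 24-h cosine terms. The script was tested on simulated data. Changes from ZT13 to ZT17 and from ZT21 to ZT1 were added after the data were seen, as was leaving out the 4 libraries with AT2G01021. The members and gene lists were chosen with earlier results of these data known. All 10 genes are named, with the most correlated gene of each, and of the 2 lists of other aquaporins and regulators the 3 highest and 3 lowest called genes at 5 FPKM or more. P-values measure the spread between libraries, whose separate origin rests on the words of the series text.

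Other pseudocounts (0.1 and 5), filters, scaling, library weights, transcript choice, a replicate block and leaving out each replicate number were tried. The replicate numbers, called batches in the sample titles, showed no pairing of the libraries on average. Deviations from the group means correlated at 0.00856 on average within a number (−0.473 to 0.582) and at −0.00445 between numbers. An average over all pairs cannot tell whether some of the groups shared a batch.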

Additional observations from a re-analysis of the deposited data

Results flagged for a closer look

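A test of the difference between the ages passed for 6 values, each given as 35 DAS minus 21 DAS on the log2 scale. The fitted 24-h rhythm differed in PIP1-1, whose amplitude differed by −0.52, in PIP1-4 (−0.20), in PIP2-1 (−0.0932) and in PIP2-7 (−0.0619). In PIP2-1 and PIP2-7 the amplitudes were close and the fitted peaks differed by over 1 h, and the sign of the amplitude difference in PIP2-1 turned with the most abundant transcript (0.0346, no longer called). The change from ZT13 to ZT17 differed in PIP1-3 (−1.45) and in PIP2-7 (−1.30), and both rose at 21 DAS. At 35 DAS PIP2-7 rose by 0.50 and the change in PIP1-3 did not pass (0.04). Without the libraries numbered 2, the differences in PIP1-4's rhythm alone passed the test among these 6.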

How the results depend on the processing

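The averaged age effect of the 10 genes kept its direction and its call in all 120 combinations of gene and alternative, with values from −3.20 to −0.34 and adjusted p (limma) of at most 0.00276. Counts at single times moved more, and with rescaling 10 genes were lower at ZT5, ZT9 and ZT17. Leaving out 1 replicate number gave 3 to 7 genes lower and 0 to 1 higher at ZT13, and library weights also gave 1 higher, PIP1-1. It gave 7 to 10 genes lower at ZT1, 5 to 8 at ZT17 and 8 to 10 at ZT21. Leaving out 1 number gave 1 to 3 genes whose rhythm differed between the ages, and 0 to 4 whose change from ZT13 to ZT17 differed, and 1 differed so without the 4 libraries with AT2G01021. At 35 DAS the change from ZT13 to ZT17 was called higher in 0 genes with no filter, rescaling, library weights or the most abundant transcript, and in 0 to 1 when 1 number was left out. It was called higher in 2 without the 4 libraries, and lower in 2 with rescaling. At 21 DAS 1 gene was lower with rescaling and when 1 number was left out (1 in each case). From ZT21 to ZT1 at 35 DAS 1 gene was lower with a pseudocount of 0.1. Rescaling left 5 regulators higher. A called value turned direction: the difference in rhythm amplitude of PIP2-1 was 0.0346 with the most abundant transcript, where its call was lost, and −0.24 to 0.0222 when 1 number was left out. The other directions that turned were of values that had not passed the test: PIP1-4 at ZT13 with rescaling (−0.0866), and at 35 DAS the change from ZT13 to ZT17 in PIP1-3 with rescaling (−0.0334) and when 1 number was left out (−0.49 to 0.70), and in PIP1-5 when 1 number was left out (−0.12 to 0.96). The cause was not tested in any of these.

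With the replicate number as a block, 10 genes were lower on average, as without it, and it changed no other count of calls. Depth is not given in the table and limits PIP2-8 and PIP2-4 most, which lie near or below 1 FPKM at 35 DAS.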
